A study of Drosophila melanogaster with 36 samples.

Results

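The citric acid cycle enzymes described here are 10 genes, kdn, mAcon1, Idh3a, Scsalpha1, SdhA, SdhB, SdhC, SdhD, Fum1 and Mdh2, chosen by symbol from the 17610 genes of the count tables and not by their values. The gene kdn is listed there under the symbol Cs1, and was matched through the authors' normalized tables, in which kdn has the same profile as Cs1 in the counts in 18 of 18 libraries of each genotype. All 10 passed the filter on low counts in each comparison. The RNA came from fat bodies of Drosophila melanogaster third-instar larvae held in constant darkness, taken every 4 h at 9 times from CT0 to CT32. The larvae were w1118, a laboratory strain with white eyes, or per0, which has no functional period gene and so lacks the molecular clock. Each genotype and time had 2 libraries, 36 in all, each from the pooled fat bodies of 5 larvae. Larvae of both sexes were used, but which sexes each pool held was not established here. CT stands for circadian time in hours. CT0, CT4 and CT8 are called the first day here, CT12, CT16 and CT20 the night, and CT24, CT28 and CT32 the second day.

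The citric acid cycle burns acetyl-CoA in the mitochondrial matrix and passes the electrons to the respiratory chain. Citrate synthase joins acetyl-CoA to oxaloacetate, aconitase and isocitrate dehydrogenase carry citrate on to 2-oxoglutarate, and succinyl-CoA synthetase, succinate dehydrogenase, fumarase and malate dehydrogenase return it to oxaloacetate. In the insect fat body, which combines tasks of liver and adipose tissue, citrate also leaves the mitochondrion and supplies the carbon for fatty acid synthesis.

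The w1118 libraries held 16948806 to 25110769 counts and the per0 libraries 16513757 to 28423768. No member fell below 706 counts in any library. The libraries carry no molecular identifiers, so how many molecules these counts stand for was not measured. Levels are in CPM, counts scaled to the library total, with trimmed mean of M values factors over all libraries. In per0 CT28 B, 11 genes that are high in w1118 and low in the other per0 libraries stood between the genotypes, at a median of 0.368 on a scale from 0 (per0) to 1 (w1118), while the other per0 libraries had -0.0129 to 0.0581. These genes were chosen for this gap with CT28 B left out, so values near 0 in the other per0 libraries follow from the choice. CT28 B of per0 is called mixed, and results that rest on it are given with and without it. For a sample titled w1118 at CT0 the genotype entry of the labels reads per0. It was kept with w1118, and no label ties it to column A or B. The 10 fat body markers, among them the larval serum proteins and fat body proteins, summed to between 24200 and 524000 CPM over all groups. The sum was lowest on the first day in per0, at 24200 to 76700 CPM, and reached 217000 to 524000 CPM on its second day. Fat body RNA was thus found in every group, but its share of a library was not measured. Nothing in the labels states that the duplicates are separate cultures, so the p-values may reflect no more than the spread between pools. In whole tissue, fewer cells of a type and less RNA per cell cannot be told apart.

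In w1118, 9 of the 10 cycle transcripts fell from the first day to the second, and only Scsalpha1 did not pass. Over all genes 10.5% of 11394 were called lower, and 15.1% in either direction. The members' median was -1.18 log2 while the median of all genes was 0.13 log2. Each value compares the 6 libraries of the second day with the 6 of the first, matched by hour of the cycle in the model, as a log2 fold change with its standard error and an adjusted p from edgeR's quasi-likelihood test.

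The deepest change was that of kdn, the citrate synthase that opens the cycle. On the first day its duplicates read 1455 and 1460 CPM (CT0), 1224 and 708 CPM (CT4) and 518 and 465 CPM (CT8). On the second day they read 176 and 65.7 CPM (CT24), 308 and 301 CPM (CT28) and 99.0 and 119 CPM (CT32). Every library of the second day lay below every library of the first, and kdn fell by 2.42 ± 0.36 log2 (adjusted p = 0.00211). mAcon1, the mitochondrial aconitase that turns citrate into isocitrate, had a lowest, median and highest level of 529, 825 and 1085 CPM on the first day and 161, 291 and 371 CPM on the second, a fall of 1.47 ± 0.20 log2 (adjusted p = 0.00146). Idh3a, the catalytic subunit of the NAD-dependent isocitrate dehydrogenase, went from 189, 243 and 338 CPM to 70.8, 113 and 156 CPM, a fall of 1.11 ± 0.19 log2 (adjusted p = 0.00355). For each of these 3 enzymes of the first steps the 2 days did not overlap. Without the times CT8 and CT32, Idh3a measured -1.06 log2 with an adjusted p of 0.0718.

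The 4 subunits of succinate dehydrogenase, which is both a cycle enzyme and complex II of the respiratory chain, fell by nearly the same amount. The flavoprotein SdhA had a lowest, median and highest level of 160, 286 and 403 CPM on the first day and 89.0, 106 and 143 CPM on the second, and fell by 1.21 ± 0.16 log2 (adjusted p = 0.00134). The iron-sulfur subunit SdhB went from 192, 238 and 321 CPM to 61.8, 98.5 and 156 CPM, a fall of 1.22 ± 0.19 log2 (adjusted p = 0.00261). Of the 2 membrane anchors, SdhC went from 190, 236 and 287 CPM to 76.5, 98.6 and 147 CPM and fell by 1.15 ± 0.13 log2 (adjusted p = 0.00101). The other anchor, SdhD, went from 118, 154 and 203 CPM to 45.8, 58.9 and 94.7 CPM and fell by 1.26 ± 0.15 log2 (adjusted p = 0.00116). In none of the 4 did the days overlap, and their estimates differed from each other by less than their standard errors. SdhB measured -1.20 log2 with an adjusted p of 0.0557 without CT8 and CT32.

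The closing enzymes fell less. Fum1, the fumarase, had a lowest, median and highest level of 198, 406 and 489 CPM on the first day and 132, 227 and 330 CPM on the second, and fell by 0.67 ± 0.16 log2 (adjusted p = 0.0216), with libraries of the 2 days overlapping. Mdh2, the mitochondrial malate dehydrogenase, went from 1046, 1324 and 1425 CPM to 575, 810 and 934 CPM without overlap, a fall of 0.62 ± 0.12 log2 (adjusted p = 0.00835). Leaving out CT0 A or CT0 B, 1 of which may carry the conflicting tag, gave Mdh2 adjusted p-values of 0.0571 and 0.0503 and Fum1 0.1 and 0.0993. Fum1 also lost its call without CT4 A, CT8 A or CT32 B (adjusted p = 0.0685, 0.0542 and 0.0523), and the members called then numbered 8. Without CT0 and CT24, and without CT8 and CT32, Mdh2 had an adjusted p of 0.138 and 0.0821. Fum1 did not pass without any 1 of the 3 matched pairs of times (adjusted p = 0.189, 0.0617 and 0.13), without the filter on low counts (adjusted p = 0.0526) or with the level of gonad marker genes as a covariate (adjusted p = 0.141).

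Scsalpha1, the alpha subunit shared by both forms of succinyl-CoA synthetase, stood apart from its neighbours in the cycle. Its lowest, median and highest level was 367, 516 and 568 CPM on the first day and 474, 504 and 604 CPM on the second, a difference of 0.11 ± 0.10 log2 (adjusted p = 0.447). The libraries of the 2 days overlapped almost wholly. In all, 8 of the 10 members had no overlap between the days in the lower direction, against 4.43% of all genes tested. Fum1 and Scsalpha1 were the exceptions.

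**Figure D1:**
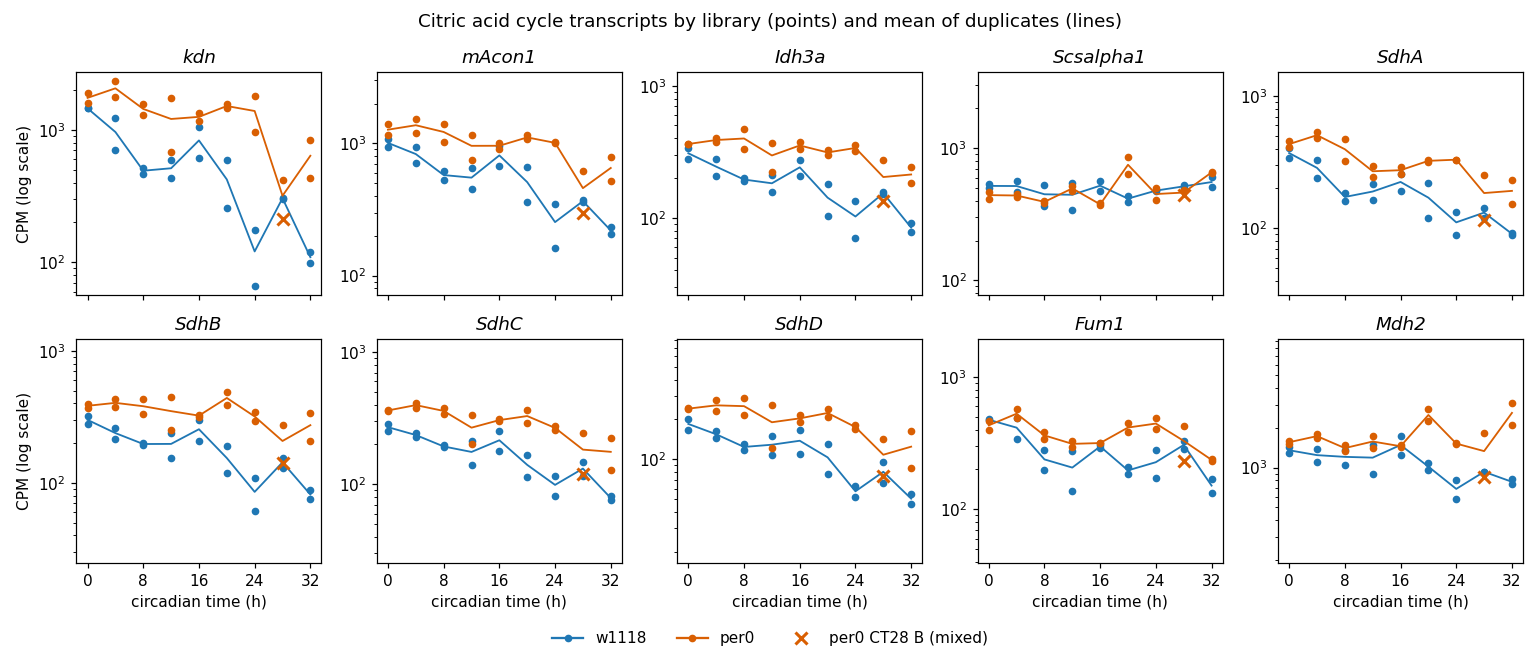
CPM on a log scale against circadian time in hours for each of the 10 genes, with points for single libraries, lines for the mean of duplicates, and a cross for the mixed per0 library. In w1118 the level of kdn goes from 1458 CPM at CT0 to 109 CPM at CT32, while Scsalpha1 stays between 416 and 555 CPM.

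In per0, 5 of the 10 members fell from the first day to the second, where 7.64% of 10552 genes were called lower and 16.6% in either direction. The median of the members was -0.78 log2 and that of all genes -0.11 log2. The calls were kdn, with -1.41 ± 0.41 log2 (adjusted p = 0.0411), mAcon1, with -0.96 ± 0.26 log2 (adjusted p = 0.0297), and the succinate dehydrogenase subunits SdhA, SdhC and SdhD, with -0.99 ± 0.24, -0.88 ± 0.21 and -0.93 ± 0.22 log2 (adjusted p = 0.0208, 0.0188 and 0.0192).

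Level by level, kdn in per0 read 1897 and 1604 CPM (CT0), 2356 and 1778 CPM (CT4) and 1300 and 1586 CPM (CT8) on the first day. On the second day it read 970 and 1814 CPM (CT24), 422 and 214 CPM (CT28) and 843 and 434 CPM (CT32). A CT24 library lay within the range of the first day, the other 5 of the second day lay below it, and the mixed library, at 214 CPM, was the lowest. SdhC went from a lowest, median and highest level of 342, 371 and 414 CPM to 120, 235 and 276 CPM. Along with mAcon1 and SdhD it was 1 of 3 members whose days did not overlap, against 2.4% of all genes, and the same 3 did not overlap without the mixed library, against 5.3%.

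The other 5 members did not pass in per0. Idh3a measured -0.67 ± 0.21 log2 (adjusted p = 0.0561), SdhB -0.59 ± 0.20 log2 (adjusted p = 0.0693) and Fum1 -0.44 ± 0.18 log2 (adjusted p = 0.122). Scsalpha1 measured 0.26 ± 0.13 log2 (adjusted p = 0.202). Mdh2 measured 0.13 ± 0.24 log2 (adjusted p = 0.752), and its level on the second day ran from 850 CPM in the mixed library to 3085 CPM in CT32 A. The libraries at CT32, 3085 and 2106 CPM, and at CT20, 2761 and 2244 CPM, were the 4 highest for Mdh2 of all 36.

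The per0 count was unstable to the times, the tool and single libraries. It was 0 without CT4 and CT28, where 1159 genes were called, and 0 without CT8 and CT32, where 306 were, in place of 1752. It was 8 by DESeq2 or with the level of gonad marker genes as a covariate, among 2977 and 1858 genes called. Of single libraries, it was 8 without CT0 A, 7 without CT0 B or CT8 A, 4 without the mixed CT28 B or CT8 B, 3 without CT24 A or CT32 A, 2 without CT4 A or CT28 A, 1 without CT32 B and 0 without CT4 B. Without the mixed library kdn measured -1.09 log2 (adjusted p = 0.0507) and the other 4 calls were retained. No member's day change reversed sign with a call in any alternative.

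The difference between the genotypes in day change was tested itself, and no member passed, where 0.499% of 11815 genes did. At an unadjusted p under 0.05 there was 1 member, Mdh2, with a difference, per0 minus w1118, of 0.54 ± 0.24 log2 (adjusted p = 0.421) and a 95% interval from its standard error of 0.07 to 1.02. For kdn the difference was 0.78 ± 0.53 log2 with an interval of -0.27 to 1.82, and for SdhA it was 0.00 ± 0.28 log2 with an interval of -0.54 to 0.54. DESeq2 and limma voom called 0 members as well. Differences as wide as these intervals were not detectable with these libraries, so the counts of 9 and 5 do not show that the genotypes differ.

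**Figure D2:**
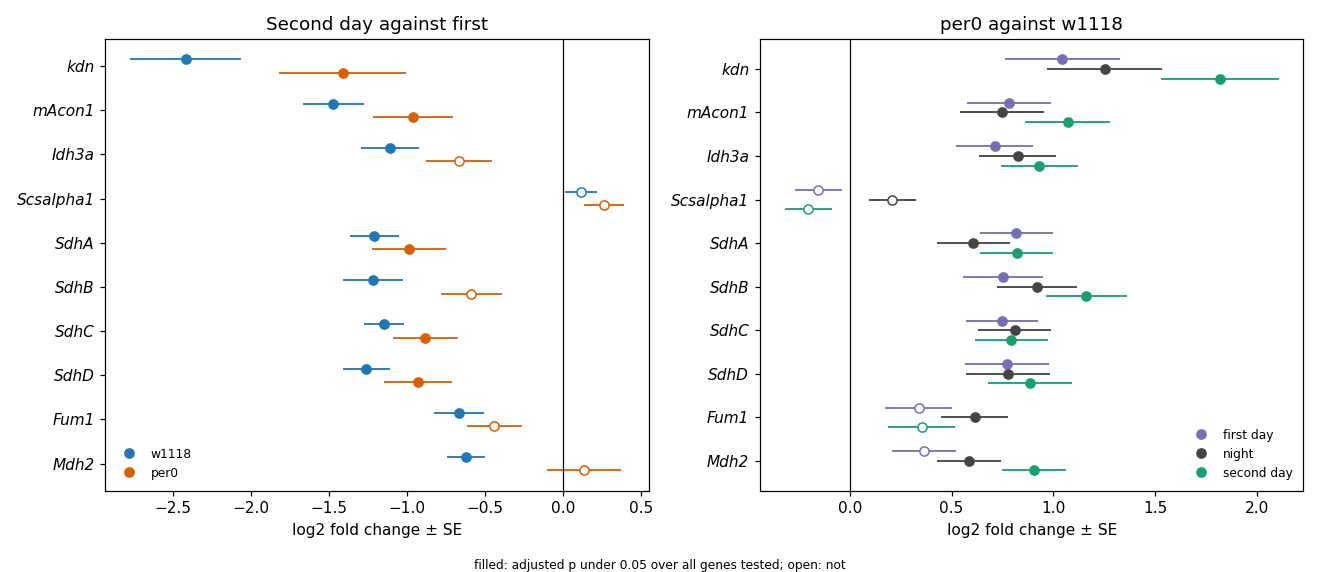
Log2 fold changes with their standard errors for the 10 genes, on the left the second day against the first in each genotype and on the right per0 against w1118 on the first day, at night and on the second day. Filled points passed an adjusted p of 0.05 and open points did not, and Scsalpha1 is open throughout.

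Compared over the whole course with time as a factor, 9 of the 10 members were higher in per0 than in w1118, where 19.4% of 12020 genes were called higher and 42.4% in either direction. The all-gene median was -0.16 log2. Whether larval stage was alike in both genotypes was not measured, as described below. The difference was 1.36 ± 0.23 log2 for kdn (adjusted p = 4.66e-05), 0.86 ± 0.13 for mAcon1 (adjusted p = 1.14e-05) and 0.82 ± 0.12 for Idh3a (adjusted p = 2.69e-06). Of the succinate dehydrogenase subunits SdhB, with 0.94 ± 0.13 log2, had the widest gap, and SdhA had 0.75 ± 0.11, SdhC 0.78 ± 0.10 and SdhD 0.81 ± 0.12 (adjusted p from 6.13e-07 to 5.06e-06). Mdh2 was higher by 0.62 ± 0.11 log2 (adjusted p = 4.98e-05) and Fum1 by 0.44 ± 0.10 log2 (adjusted p = 0.00103). Scsalpha1, with -0.05 ± 0.08 log2 (adjusted p = 0.592), again did not pass. This count of 9 held with any 1 of the 36 libraries left out and in each other alternative run. No member was free of overlap between the genotypes over the whole course, against 0.3% of genes that were higher without overlap.

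The same contrast was split into the first day, the night and the second day, all from 1 fit, and these use the same first-day libraries as the day changes above. On the first day 7 members were higher in per0, where 10.1% of genes were called higher and 16.6% in either direction. The values ran from 0.71 ± 0.19 log2 for Idh3a to 1.04 ± 0.28 log2 for kdn, and Fum1 (0.34 ± 0.16, adjusted p = 0.185), Mdh2 (0.37 ± 0.16, adjusted p = 0.125) and Scsalpha1 (-0.16 ± 0.12, adjusted p = 0.432) did not pass. SdhB, SdhC and SdhD did not overlap, against 3.39% of genes. SdhC illustrates this, with 190 to 287 CPM in w1118 and 342 to 414 CPM in per0. The count fell to 2 without w1118 CT0 B, w1118 CT4 B or per0 CT8 B, and to 4 without w1118 CT8 A, w1118 CT8 B, per0 CT0 A or per0 CT4 A. It was 6 without w1118 CT0 A. SdhA and SdhC were called throughout these fits. The count of all genes called also moved with the library left out, and its range is given in the last section. Of the 10 fat body markers 6 were lower in per0 on the first day, with a median difference of -2.31 log2, and their sum had a median of 48700 CPM in per0 (range 24200 to 76700) and 173000 CPM in w1118 (range 97200 to 369000). Their part in the first-day difference was not tested.

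At night 9 members were higher in per0, where 15.4% of genes were called higher and 24.1% in either direction. The values were 1.25 ± 0.28 log2 for kdn, 0.92 ± 0.20 for SdhB and between 0.59 and 0.83 for the other 7 (adjusted p from 0.00218 to 0.0179), while Scsalpha1 measured 0.21 ± 0.12 log2 (adjusted p = 0.202). No member was without overlap, against 2.86% of genes. With DESeq2's size factors 52.8% of the genes called at night were higher, in place of 63.6%, and 9 members were called there too. SdhA lost its call without w1118 CT12 A, CT16 A or CT20 B (adjusted p = 0.0508, 0.0573 and 0.0599), and without w1118 CT12 B Scsalpha1 was called with 0.39 log2 (adjusted p = 0.0121).

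On the second day 8 members were higher in per0, where 12.5% of genes were called higher and 40.6% in either direction. The gap was 1.82 ± 0.29 log2 for kdn (adjusted p = 0.00022), 1.16 ± 0.20 for SdhB (adjusted p = 0.00045), 1.07 ± 0.21 for mAcon1 (adjusted p = 0.00139) and 0.91 ± 0.16 for Mdh2 (adjusted p = 0.000549). No member was without overlap when the mixed library counted as per0, against 2.99% of genes. Without it 6 members, kdn, mAcon1, Idh3a, SdhA, SdhB and Mdh2, did not overlap, against 6.97% of genes. For kdn the 5 remaining per0 libraries spanned 422 to 1814 CPM and the 6 of w1118 65.7 to 308 CPM. Fum1 measured 0.35 ± 0.16 log2 (adjusted p = 0.0904) and Scsalpha1 -0.21 ± 0.12 log2 (adjusted p = 0.157). The level of these second-day values depends on the libraries and genes used. The median of all genes was -0.28 log2 and ran from -0.389 to -0.041 log2 when 1 of the 36 libraries was left out. For kdn the value ran from 1.61 to 2.19 log2 in those fits. With DESeq2's size factors the median of all genes was -0.247 log2, and without the filter on low counts -0.143 log2. Why it moved was not tested. Relative to the median of -0.28 log2, Fum1 was at 0.63 log2, Scsalpha1 at 0.07 log2 and kdn at 2.10 log2. Fum1 was called with DESeq2 (0.40 log2, adjusted p = 0.0313), with DESeq2's size factors (0.40 log2, adjusted p = 0.0484) and without the filter on low counts (0.57 log2, adjusted p = 0.0168). It was also called in 11 of the fits that leave out 1 library, at 0.65 to 0.77 log2 relative to the median, and the direction of Scsalpha1, never called there, ran from -0.25 to 0.11 log2. Without the filter on low counts 46.7% of the calls were higher in per0, in place of 30.9%.

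Samples differed in other tissues' markers along with these changes. Of 11 gonad markers 10 were matched, namely aly, can, topi, comr, sa, mia, vis, achi, bam and vas. How far their level follows the sexes in a pool was not tested. None of them was called by day in either genotype. Between the genotypes 10 of 10 were lower in per0 on the second day, with a median of -4.11 log2, and 1 at night. Their summed level had a median of 8.49 CPM on the first day and 64.1 on the second in w1118 (range 4.39 to 67.9 and 5.72 to 126), and of 17.0 and 4.51 in per0 (range 7.75 to 27.5 and 3.71 to 85.4). With the mean of the markers' log2 CPM as a covariate, 8 members were called lower on the second day in w1118 and 8 in per0. Only 2, kdn and SdhB, were then called higher in per0 on the second day, and 5 at night. The counts over all genes in those fits were 958 in w1118 and 1858 in per0 for the day change, and 521 on the second day and 1891 at night between the genotypes, in place of 1715, 1752, 4875 and 2901. In that fit mAcon1 measured 0.72 log2 (adjusted p = 0.0988) and Mdh2 0.63 log2 (adjusted p = 0.064) on the second day. Of 8 hemocyte markers 5 were called lower on the second day in w1118 and 0 in per0, where srp alone was called and was higher, and their sum, mostly Col4a1, which the fat body also expresses, went from a range of 4930 to 12200 CPM to one of 1520 to 4870 CPM in w1118. In per0 that sum went from a range of 6350 to 9050 CPM to one of 3350 to 8710 CPM. None of 12 muscle markers was called in w1118 and 1 in per0, with sums of 570 to 4890 and 335 to 1830 CPM on the 2 days in w1118, and 784 to 5550 and 315 to 3860 CPM in per0. Midgut sums ran from 6.79 to 17100 CPM over all groups, with 0 of the 8 tested of 10 markers called by day in w1118 and 1 each way in per0. The part of hemocytes, muscle and midgut in the members' changes was not tested.

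The libraries also moved along larval development. The fat body protein gene Fbp1, which ecdysone induces late in the third instar, had a median of 5.24 CPM on the first day and 4742 CPM on the second in w1118, and of 1.32 and 2951 CPM in per0. Larval serum protein Lsp2 went from a median of 226 to 3827 CPM in w1118 and from 0.306 to 2797 CPM in per0. The salivary glue genes Sgs1, Sgs3, Sgs4, Sgs5, Sgs7 and Sgs8 reached a sum of 1680 CPM in a w1118 library and 12500 CPM in a per0 library of the second day, against at most 3.37 CPM on the first day. Of the 10 fat body markers, 5 were called higher and 2 lower on the second day in w1118, and 8 higher in per0. The medians of Fbp1 and Lsp2 were lower in per0 than in w1118 on both days, while the highest glue sum was in per0. Whether both genotypes were at the same stage at a given CT was not measured, so genotype and larval stage cannot be told apart. The part of stage in the members' differences between the genotypes was not tested. Larval age and the hour of sampling cannot be told apart in this design, and the part of either in the members' changes was not tested.

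Whether the members differed between any times was asked with time as a factor of 9 levels. In w1118, 3 members passed, where 12.2% of 11650 genes did. These were kdn, with 3.53 log2 between its highest and lowest time (adjusted p = 0.0119), SdhA, with 1.81 log2 (adjusted p = 0.0375), and SdhD, with 1.67 log2 (adjusted p = 0.0447). At an unadjusted p under 0.05 there were 8, all but Scsalpha1 and Mdh2. The count was sensitive to tool and library, with 6 by limma voom, 9 by DESeq2 and 7 with DESeq2's size factors in edgeR, and from 1 (without CT0 A, CT4 A, CT4 B, CT32 A or CT32 B) to 8 (without CT12 A). It was 2 without CT8 A or CT8 B, 4 to 7 without each of the other 10 libraries, and 0 with the gonad covariate, where kdn had an adjusted p of 0.0521. Over all genes limma voom called 1613, DESeq2 5473, DESeq2's size factors 1958 and the gonad covariate 651, in place of 1426. Leaving out any 1 library did not end the call of kdn.

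In per0 no member passed for any time, where 9.71% of 10926 genes did. At an unadjusted p under 0.05 there were 6 of 10. By limma voom 1 member was called among 699 genes, and by DESeq2 9 among 4118, where edgeR called 1061 genes. The nearest to the threshold were Scsalpha1, with 0.94 log2 between its highest time, CT20, and its lowest, CT16 (adjusted p = 0.0555), and kdn, with 2.71 log2 (adjusted p = 0.0662). Without CT28 A there were 6 calls, without the mixed CT28 B there were 2, SdhA and Fum1 (adjusted p = 0.0376 and 0.0387), and without CT12 A, CT12 B or CT8 A there was 1.

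In w1118, 6 of the 10 members, kdn, mAcon1, Idh3a, SdhA, SdhC and SdhD, had their highest 3 times in the order CT0, CT4 and CT16. Between neighbouring times in the order of levels, kdn had 3 of 8 steps larger than the pooled standard deviation of its duplicates, 0.524 log2, and the largest, 1.49 log2, lay between CT28 at 305 CPM and CT32 at 109 CPM. Most neighbouring times therefore did not differ beyond that spread. In Scsalpha1 and Mdh2 0 of 8 steps exceeded it. In per0 kdn ran from 2067 CPM at CT4 to 318 CPM at CT28, with 2 of 8 steps above its duplicate spread of 0.519 log2, and the largest, 1.01 log2, lay between CT32 and CT28, which holds the mixed library. Scsalpha1 had the closest duplicates in per0, with a spread of 0.139 log2, and its 2 highest times were CT20, at 750 CPM, and CT32, at 656 CPM.

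No member passed for a 24 h or a 12 h rhythm in either genotype, nor for a difference in rhythm between them. The background was 0.618% of genes for 24 h in w1118 and 0% in each of the other 5 tests. At an unadjusted p under 0.05 the members numbered 0 in all 6, and limma voom and DESeq2 called 0 of them. The nearest for 24 h in w1118 was Fum1, with 0.72 ± 0.31 log2 from peak to trough and a fitted peak at CT1.83 (adjusted p = 0.675). In per0 the nearest for 24 h was again Fum1, with 0.60 ± 0.25 log2 (adjusted p = 0.492), and for 12 h Scsalpha1, with 0.54 ± 0.20 log2 (adjusted p = 0.485). For kdn in w1118 the 24 h value was 0.56 ± 0.80 log2 (adjusted p = 0.989), so a rhythm of moderate size was not detectable in this gene.

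The members were next set against each other within libraries, which removes scaling. SdhC, the subunit with the smallest standard error in w1118, was taken as the reference after the values had been seen. In w1118 the mean log2 ratio of SdhA to SdhC was 0.18 ± 0.32 (SD, n = 6) on the first day and 0.12 ± 0.10 on the second, that of SdhB 0.06 ± 0.10 and -0.02 ± 0.21, and that of SdhD -0.60 ± 0.06 and -0.72 ± 0.12. None of these 3 shifts passed a two-sided exact permutation test of 6 against 6 libraries with 18 tests adjusted together (adjusted p = 0.74, 0.598 and 0.113). Nor did that of Idh3a, at 0.03 log2 (adjusted p = 0.758). The permutations moved libraries freely between the days, without the match by hour of the cycle used for the day changes. The p-values of all ratios thus treat the hours of a day as exchangeable. Duplicates in w1118 differed in 1 direction for some of these ratios. Column A lay above column B at 9 of 9 times for Idh3a and SdhA, by a mean of 0.25 and 0.16 log2, and at 8 of 9 for mAcon1, by 0.25 log2. No label says what the letters stand for, and each letter holds 1 library of each time.

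The ratio of kdn to SdhC fell by 1.31 log2 in w1118, from a mean of 1.92 ± 0.54 to 0.61 ± 0.59 (SD, n = 6, exact permutation test, adjusted p = 0.0195). mAcon1 fell against SdhC by 0.34 log2 (adjusted p = 0.0468, exact permutation test). The ratio of Scsalpha1 rose by 1.28 log2 without overlap (adjusted p = 0.013), that of Mdh2 by 0.54 log2 (adjusted p = 0.026) and that of Fum1 by 0.48 log2 (adjusted p = 0.039), all by the same exact test. SdhC itself fell by 1.15 log2 in w1118, Mdh2 by 0.62 and Fum1 by 0.67, so these ratios rose because SdhC fell more. The ratios restate the day changes of the same libraries and add no separate support. With each of 12 libraries left out in turn, mAcon1 passed an unadjusted p of 0.05 in 6 fits, and kdn, Scsalpha1, Mdh2 and Fum1 in all 12.

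In per0 the ratio to SdhC rose by 1.19 log2 for Scsalpha1 and by 1.03 log2 for Mdh2, both without overlap (adjusted p = 0.013 each, exact permutation test, the smallest raw p possible being 0.00217). It rose by 0.47 log2 for Fum1, 0.31 log2 for SdhB and 0.24 log2 for Idh3a (adjusted p = 0.0468, 0.026 and 0.0468, exact). Without the mixed library the ratio of Fum1 rose by 0.42 log2 (adjusted p = 0.0935, exact) and that of Idh3a by 0.26 log2 (adjusted p = 0.052), and neither passed. That of SdhB did, with 0.33 log2 (adjusted p = 0.0445, exact). The shift of kdn was -0.56 log2 (adjusted p = 0.169, exact), and -0.40 log2 without the mixed library. SdhA and SdhD did not pass in per0 either, at -0.09 and -0.04 log2.

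**Figure D3:**
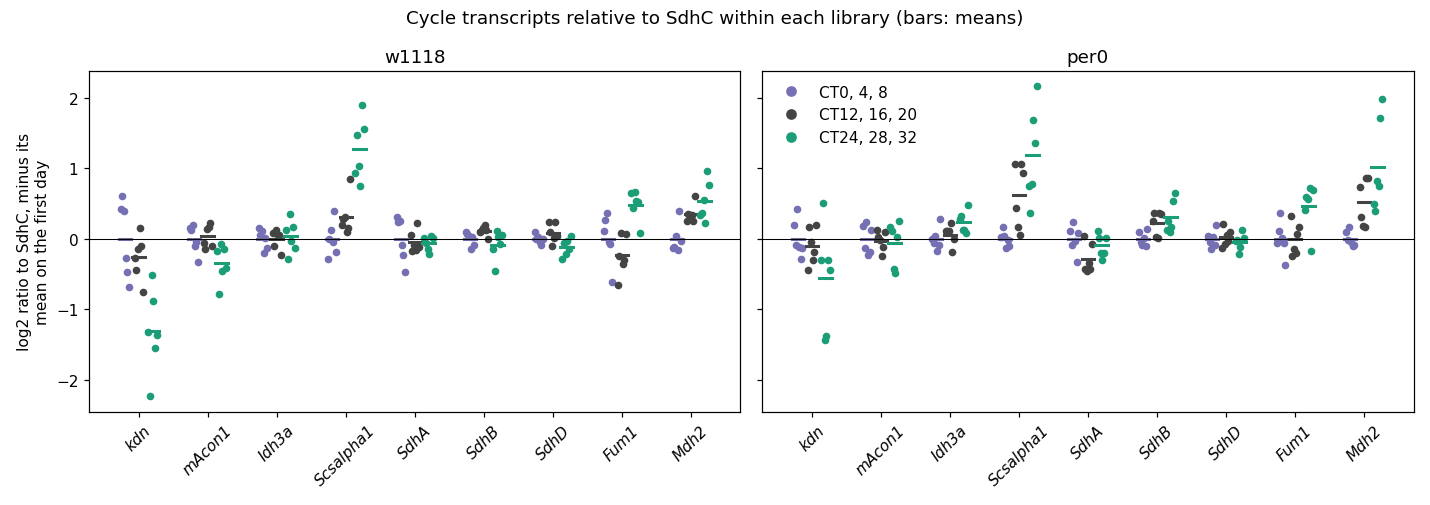
Log2 ratio of each of 9 genes to SdhC in each library, shown minus its mean over the first day, with w1118 on the left and per0 on the right, colours for the first day, the night and the second day and bars for means. On the second day the means of SdhA and SdhD lie near 0 in both genotypes. The second-day mean of Scsalpha1 lies higher by 1.28 and 1.19 log2, and that of kdn lies lower by 1.31 log2 in w1118.

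Across the 18 w1118 libraries the log2 levels of kdn, mAcon1, Idh3a and the 4 succinate dehydrogenase subunits had pairwise Pearson correlations of 0.936 to 0.986, and across 17 per0 libraries without the mixed one 0.716 to 0.969. These are descriptions, since libraries share their scaling, time and larval age. Scsalpha1 had correlations of -0.0377 to 0.466 with the other members in w1118. In per0 it had 0.882 with Mdh2 and -0.517 to 0.0489 with the other 8. Mdh2 itself had 0.84 to 0.936 with the first 7 in w1118 and -0.391 to 0.161 with them in per0.

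Levels between genes were compared per kilobase of annotated exon, using Ensembl gene models, which may differ from those used for counting. Mdh2 was the most abundant member in both genotypes, with a median of 796 CPM per kilobase in w1118 and 1170 in per0, and SdhA the least, with 63.5 and 117. In w1118 Scsalpha1 ranked next to the top at 340 CPM per kilobase, followed by SdhC at 191. On the first day kdn ranked 3 of 10 in w1118, at 341 CPM per kilobase, and on the second day 9 of 10, at 51.9. In per0 kdn ranked 2 of 10 on the first day, at 596 CPM per kilobase, and 6 of 10 on the second, at 225, or 3 of 10 without the mixed library, at 297.

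The remaining subunits of the cycle were looked at as a list of 7 genes. In w1118, 5 of 7 fell on the second day and in per0 4 fell and 1 rose, with medians of -0.81 and -0.64 log2. Dld, the dihydrolipoamide dehydrogenase shared by pyruvate and 2-oxoglutarate dehydrogenase, fell by 1.57 ± 0.13 log2 in w1118 (adjusted p = 0.000777) and by 0.89 ± 0.24 in per0 (adjusted p = 0.0296). Dlst, the succinyltransferase of 2-oxoglutarate dehydrogenase, fell by 0.95 and 0.64 log2, and the isocitrate dehydrogenase subunits Idh3b and Idh3g fell by 0.81 and 0.89 log2 in w1118 and by 0.73 and 0.65 log2 in per0. The 2 that did not fall in w1118 were the partners of Scsalpha1, named here after their values were seen. ScsbetaA, the ATP-forming beta subunit, measured -0.27 ± 0.12 log2 (adjusted p = 0.162) and ScsbetaG, the GTP-forming one, -0.03 ± 0.09 log2 (adjusted p = 0.821). In per0 ScsbetaA measured -0.09 ± 0.13 log2 (adjusted p = 0.691) and ScsbetaG rose by 0.57 ± 0.17 log2 (adjusted p = 0.0453). None of the 3 subunits of succinyl-CoA synthetase thus passed as lower in either genotype.

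On the way into the cycle, 7 of 9 listed genes of pyruvate entry were matched and tested. In w1118, 5 fell and 1 rose on the second day. The lipoyl subunit muc of pyruvate dehydrogenase fell by 2.12 ± 0.17 log2, its alpha and beta subunits Pdha and Pdhb by 2.10 ± 0.22 and 1.79 ± 0.15, and the mitochondrial pyruvate carrier subunit Mpc1 by 1.66 ± 0.17 (adjusted p from 0.000777 to 0.00089). Pdha went from a median of 973 CPM to 192 CPM. The gene that rose was Pdk, the kinase that switches pyruvate dehydrogenase off, by 0.75 ± 0.12 log2 (adjusted p = 0.00316), and it is named after its value was seen. In per0, 3 fell, muc by 0.93 and Pdhb by 1.41 log2, and Pdha from a median of 1646 to 673 CPM (adjusted p = 0.00931), and Pdk measured 0.70 ± 0.26 log2 (adjusted p = 0.0941).

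Of 13 genes for the exits of citrate and malate and the shuttles that carry them, 12 were tested, since Pepck1 did not pass the filter. In w1118, 8 fell. Acly, the ATP citrate lyase that makes cytosolic acetyl-CoA, fell by 1.98 ± 0.17 log2 (adjusted p = 0.000777), Idh, the NADP-dependent isocitrate dehydrogenase, by 1.28 ± 0.17 (adjusted p = 0.00143), and the malic enzyme Men by 1.29 ± 0.21 (adjusted p = 0.00337). The carnitine carrier colt fell by 0.79 ± 0.14 log2 (adjusted p = 0.00437). In per0, 2 fell, the malic enzyme Men-b from a median of 94.6 to 44.0 CPM (adjusted p = 0.0192) and the mitochondrial citrate carrier sea from 12.3 to 6.89 CPM (adjusted p = 0.038), while Acly measured -0.22 ± 0.31 log2 (adjusted p = 0.688).

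Of the respiratory complexes downstream of succinate dehydrogenase, 28 of the 30 listed genes of complex III, complex IV and ATP synthase were tested. In w1118 all 28 fell on the second day, from -0.93 to -1.51 log2, with a median of -1.26 log2. In per0 3 fell, Cyt-c1, COX5B and COX8, with values of -0.77, -0.71 and -0.80 log2 and a median over the list of -0.62 log2. All 28 were higher in per0 than in w1118 over the course, with a median of 0.72 log2. In these 3 contrasts the members' medians, -1.18, -0.78 and 0.80 log2, lay close to them.

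**Figure D4:**
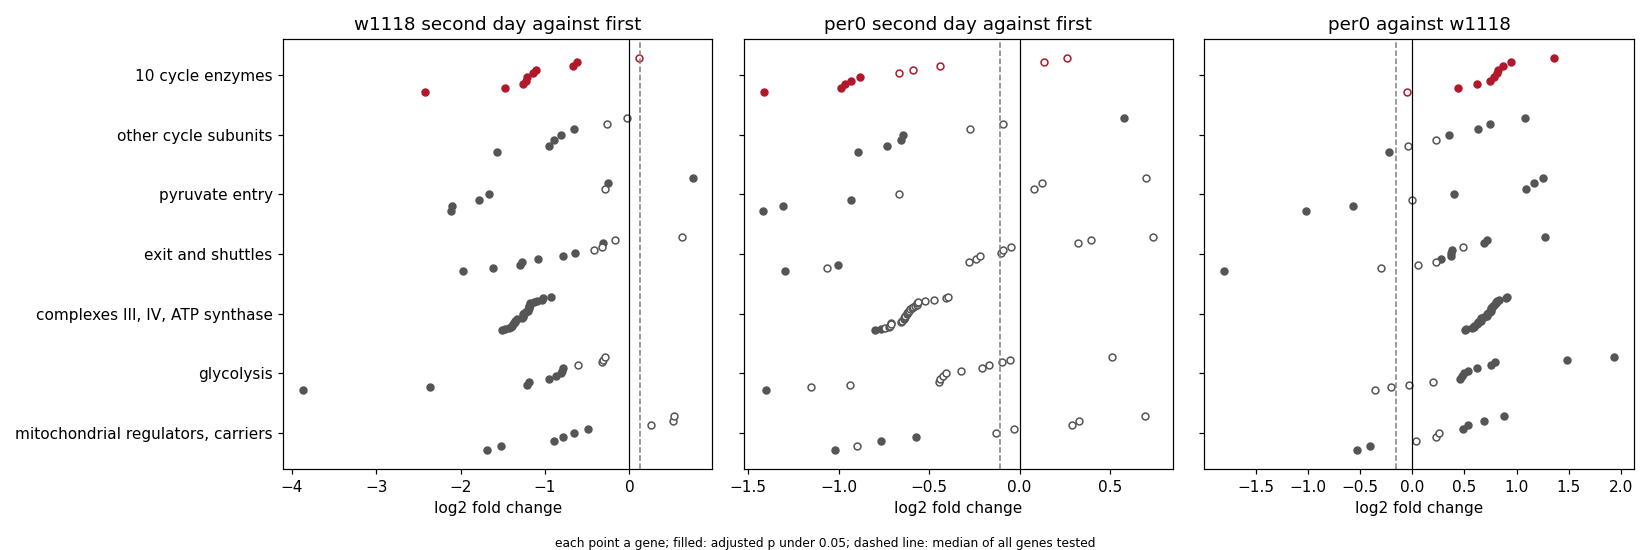
Log2 fold changes of the 10 cycle enzymes, in red, and of 6 lists of genes around the cycle, in grey, for the day change in each genotype and for per0 against w1118. Each point is a gene, filled where it passed an adjusted p of 0.05, and the dashed line marks the median of all genes tested, 0.13, -0.11 and -0.16 log2.

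Glycolysis, upstream of pyruvate, had 9 of 13 genes lower on the second day in w1118 and 1 in per0, with medians of -0.81 and -0.41 log2. Pyruvate kinase Pyk fell by 2.36 ± 0.20 log2 in w1118 (adjusted p = 0.000777) and measured -0.94 ± 0.30 log2 in per0 (adjusted p = 0.0603). The hexokinase Hex-C fell by 3.87 ± 0.51 log2 in w1118 and by 1.40 ± 0.27 in per0 (adjusted p = 0.00141 and 0.008). Among 9 mitochondrial regulators and carriers, 6 fell in w1118 and 3 in per0. The outer membrane channel porin fell by 1.52 and 1.02 log2, and TFAM, which packs mitochondrial DNA, by 0.66 and 0.57 log2. The adenine nucleotide translocase sesB fell by 1.69 log2 in w1118 and measured -0.90 log2 in per0 (adjusted p = 0.0506), and spargel, srl, the fly PGC-1 coactivator, fell by 0.89 log2 in w1118 (adjusted p = 0.0165) and measured -0.03 log2 in per0 (adjusted p = 0.921).

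Of 4 listed assembly factors for succinate dehydrogenase, 2 were matched, and they moved in opposite directions in both genotypes. Sdhaf3 fell by 1.05 ± 0.22 log2 in w1118 (adjusted p = 0.00981) and by 1.38 ± 0.23 log2 in per0 (adjusted p = 0.00437), alongside the subunits. Sirup, the fly Sdhaf4, rose by 2.95 ± 0.38 log2 in w1118 (adjusted p = 0.00134) and by 2.67 ± 0.62 log2 in per0 (adjusted p = 0.0179). In w1118 Sirup had a lowest, median and highest level of 8.65, 13.5 and 95.1 CPM on the first day and 63.4, 155 and 318 CPM on the second, which overlapped.

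Genes related to those of the cycle, some for enzymes in other compartments, were listed as 15 paralogs, of which 13 were matched. Sharing of reads between them and the members was not measured. None was called in the day change of either genotype, with 13 tested in w1118 and 9 in per0. The paralogs mAcon2, SdhAL and Fum4, known for expression in testis, stayed at or below 23.1, 7.39 and 7.18 CPM in all libraries. The cytosolic malate dehydrogenase Mdh1 was abundant, with medians of 1697 and 1585 CPM on the first and the second day in w1118 and 1380 and 1301 CPM in per0, and measured -0.13 ± 0.09 and 0.21 ± 0.17 log2 (adjusted p = 0.339 and 0.473). On the second day 11 of the 13 paralogs were lower in per0, with a median of -5.01 log2, and over the course 5 of 13 were, with a median of -2.72 log2. Of all genes, 40.6% were called in either direction and 12.5% higher on the second day, against 42.4% and 19.4% over the course. The gonad markers were also lower in per0 on the second day, and their part in the paralogs' difference was not tested.

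The 5 other genes whose log2 levels followed the mean z-score of the members most closely over all 36 libraries, out of 5246 genes with a mean of at least 10 CPM, were the complex I subunits ND-B16.6, ND-18 and ND-B14, the Rieske protein RFeSP of complex III, and QIL1, a subunit of the cristae organizing complex. Their Pearson correlations were 0.984, 0.982, 0.981, 0.982 and 0.981, and at least 0.98 without the mixed library. ND-B16.6 had medians of 203 and 85.2 CPM on the first and the second day in w1118 and of 259 and 210 CPM in per0. These likenesses are descriptions over libraries that share time, larval age and scaling.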

How the data were processed

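Per the labels' protocols, total RNA from pooled fat bodies was made into libraries by the SMART-Seq v4 method, whose PCR-amplified cDNA carries no strand information and no molecular identifiers. The authors deposited raw counts per gene for each genotype. Per the submitters' processing notes, the tools named are featureCounts, STAR 2.7.9a, DESeq2 1.30.1 and edgeR, without role or order, and for the genome build the sources used here give none. A normalized signal table per genotype, likewise deposited, holds gene counts divided by 1 size factor per library, and was used only to match kdn. Of its values 99.8% in w1118 and 99.9% in per0 lay within 1% of such a factor.

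Counts were tested with edgeR 4.0.16 in R 4.3.3 (TMM scaling, filterByExpr by genotype and time, quasi-likelihood F test, Benjamini-Hochberg adjustment over all genes tested). Unless another tool or an exact test is named, adjusted p-values come from edgeR, with calls made under 0.05. Rhythms were a 24 h and a 12 h cosine and sine pair fitted together. Alternatives used limma 3.58.1 voom, DESeq2 1.42.0, DESeq2 size factors, no filter, a gonad marker covariate, a block on the column letter, times left out and libraries left out. Exact permutation tests used scipy 1.17.1. Log2 CPM used a prior count of 0.5. The duplicates of the 18 groups had equal counts in 1.55 to 3.61% of genes and were kept as separate libraries. Fits were tested on simulated data.

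All 10 members were named, with up to 4 genes of smallest p from each other list. Of 167 listed genes in 15 lists 159 were matched. The members and lists were chosen with earlier results of these data known. No sequences are shown.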

Additional observations from a re-analysis of the deposited data

How the results depend on the processing

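Duplicates are lettered A or B in the count tables and numbered in the labels, with no link between them. A replicate block on the letter, added after seeing the data, gave 1957 (9) and 1876 (5) for the day change in w1118 and per0, and (1) and (1) for any time, where SdhA and SdhD lost their calls in w1118 and Scsalpha1 gained one in per0. Over genes, the difference of A and B at 1 time was correlated with that at another, for 36 pairs of times per genotype. In w1118, 13 pairs lay above 0.1 and 13 below -0.1, with a median of 0.0193. The letters are thus not shown to pair libraries there. In per0, 26 pairs lay above 0.1 and 3 below -0.1, with a median of 0.242. Libraries of 1 letter thus tended to deviate together in per0, and what the letters stand for was not tested. With days permuted only within a letter, the same 5 ratios to SdhC passed in w1118, and in per0 Idh3a and Fum1 no longer did (adjusted p = 0.06 and 0.063, exact). No result reversed, and in the alternatives other than leaving out single libraries 1085 single values kept their side of the threshold, 46 gained and 36 lost a call. The causes of the shifts below were not tested. Counts of genes called, with members in brackets, follow. DESeq2 gave 2763 for the day change in w1118, 2977 (8) in per0 and 553 for its difference, 5473 (9) and 4118 (9) for any time, 434 and 103 for 24 h rhythms, 253 and 308 for 12 h rhythms, and 11 and 4 for rhythm differences. DESeq2 size factors gave (7) and (1) for any time, 112 for the 24 h and 2 for the 12 h rhythm in w1118. With the gonad covariate the day change had 958 in w1118, (8) in per0 and 11 for its difference, any time 651 (0) in w1118 and (4) in per0, the 24 h rhythm in w1118 122, the 12 h rhythm in per0 1, and per0 against w1118 1891 (5) at night and 521 (2) on the second day. limma voom gave (6) and 699 (1) for any time, no filter (5) in w1118, and linear time 183 for the w1118 24 h rhythm. Leaving out CT0 and CT24 gave 557 in w1118 and 22 for the difference, CT4 and CT28 1159 (0) in per0 and 737, and CT8 and CT32 699 (5), 306 (0) and 7. Without the mixed library there were 186 for the difference, (2) for any time in per0 and 1 for its 12 h rhythm. Leaving out single libraries, the day change ranged from 949 (without CT0 A) to 1766 in w1118 (7 to 9 members), 1103 to 2615 in per0 (0 to 8) and 28 to 186 for the difference (0). Any time ranged from 841 to 2089 (1 to 8) and 396 to 1588 (0 to 6), 24 h rhythms from 11 to 96 in w1118 and 0 in per0, 12 h rhythms from 0 to 2 and 0 to 26, and rhythm differences from 0 to 1. The genotype contrast ranged from 4640 to 6432 (9), on the first day 1204 to 2059 (2 to 7), at night 1929 to 3155 (8 to 10) and on the second day 1990 (without w1118 CT28 B) to 5619 (8 to 9).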
